A study of Homo sapiens with 24 samples.

Results

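The D-type cyclins CCND1, CCND2 and CCND3, their partner kinases CDK4 and CDK6, and the RB family genes RB1, RBL1 and RBL2 were followed across 6 liver cancer cell lines. They are 8 of the 23284 rows of the deposited expression table and were taken by gene symbol. The choice of these genes was made with earlier results of these data known. All 8 symbols had a row.

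D-type cyclins are the regulatory subunits that bind CDK4 or CDK6 in the G1 phase of the cell cycle, and the resulting kinases phosphorylate the pocket proteins RB (the product of RB1), p107 (RBL1) and p130 (RBL2). Unphosphorylated pocket proteins hold E2F transcription factors and keep S-phase genes low, so phosphorylation opens the way into S phase. In epithelial cells TGF-beta is known for stopping the cycle at this step, through inhibitors of these kinases such as CDKN2B and CDKN1A. In liver cancer, CCND1 and the RB pathway are among the parts of the cell cycle that are often altered.

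The series examined how SFPQ, a nuclear RNA-binding protein that forms condensates, bears on TGF-beta signalling through SMAD4. Polyadenylated RNA was sequenced from the lines labelled SK-HEP1, HLE, HepG2, Huh7, Huh1 and Hep3b. Cells of every line received either a control siRNA (siCTL) or one directed at SFPQ (siSFPQ), and were then either untreated or exposed to 2 ng per ml of TGF-beta for 24 hours. This made 4 groups of 6 libraries, 1 per line, so the lines are the replicates and p-values measure the spread between lines. All groups went through transfection, and the labels name no untransfected cells, no rescue and no separate cultures within a line. All values are bulk RNA levels, in which fewer cells in a phase of the cycle and less RNA per cell cannot be told apart. Levels are taken as FPKM, a measure corrected for both transcript length and library size, by which genes can be set side by side.

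The targeted gene followed the labels. SFPQ stood at 165 ± 59.5 FPKM in siCTL cells (SD, n = 6) and 37.2 ± 11.5 in siSFPQ cells (SD, n = 6). The level retained after knockdown without TGF-beta was 9.49% of siCTL in HLE, 13.1% in SK-HEP1, 24.2% in Hep3b, 26% in Huh7, 40.4% in Huh1 and 45.2% in HepG2. Depth, estimated from low genes, ran from 0.352 to 1.74 times that of the median library and was lowest in a Huh7 and a HepG2 library. The summed level of 8 hepatocyte markers was at least 8475 FPKM in HepG2 and Huh7, 688 to 1120 in Huh1, 25.1 to 109 in HLE, 12.2 to 22.7 in the libraries labelled Hep3b and 11.8 to 14.1 in SK-HEP1. In the libraries labelled Hep3b, HNF4A stayed between 0.368 and 0.79 FPKM and ALB between 0.514 and 0.951. Hep3B is known as a hepatocyte-like line, so these markers go against the label, and calls of the members are given with and without these libraries. SK-HEP1 is regarded as endothelial in origin, yet none of 5 endothelial markers reached 1 FPKM in any line (0 of 5).

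RefSeq promoter windows, 250 bases before to 50 bases after a start site on GRCh38.p14, were matched by symbol for 6 of the 8 genes. They were searched on both strands for the E2F letters TTTCCCGC, TTTCGCGC, TTTGCCGC and TTTGGCGC, none of which is the reverse complement of another, and for the E-box CACGTG, which is its own reverse complement and was counted once. The 2 windows shown are those with the most matches to the E2F letters (RBL1) and to the E-box (CDK4), and the capitals mark the matches. The RBL1 window is chr20:37095948-37096247 and the CDK4 window is chr12:57752261-57752560, both on the minus strand and both written 5′ to 3′ along the gene.

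RBL1: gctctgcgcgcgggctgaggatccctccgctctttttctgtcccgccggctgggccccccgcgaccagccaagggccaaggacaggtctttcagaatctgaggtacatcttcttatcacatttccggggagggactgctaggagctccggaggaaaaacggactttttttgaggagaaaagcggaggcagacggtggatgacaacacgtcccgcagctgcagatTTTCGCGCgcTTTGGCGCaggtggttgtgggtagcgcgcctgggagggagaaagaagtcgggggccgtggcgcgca

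CDK4: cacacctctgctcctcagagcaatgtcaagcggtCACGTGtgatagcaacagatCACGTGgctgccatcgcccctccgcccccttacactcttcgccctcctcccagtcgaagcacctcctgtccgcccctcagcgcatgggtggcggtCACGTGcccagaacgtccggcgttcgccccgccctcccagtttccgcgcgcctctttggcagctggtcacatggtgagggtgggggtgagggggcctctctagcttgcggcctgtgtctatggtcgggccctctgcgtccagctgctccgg

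RBL1 held 2 E2F matches, TTTCGCGC at bases 225 to 232 and TTTGGCGC at bases 235 to 242 of the window, both just upstream of the start. Of 35116 RefSeq windows of this length, 3.31% held at least 1 E2F match and 0.145% held at least 2. CDK4 held 3 E-box matches, beginning at bases 35, 55 and 150, where 7.26% of windows held at least 1 and 0.094% at least 3. CDK6 held 1 E-box in 1 of its 2 windows. No other member with a window held an E2F match. The windows of RB1, RBL2 and CCND3 held neither motif, although RB1 and RBL2, like RBL1, fell after knockdown without TGF-beta. A match describes the letters only.

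CCND1, the cyclin D1 gene, was the most abundant D-type cyclin in every line but the one labelled Hep3b. In siCTL cells it was at 58.7 FPKM in Hep3b, 73.3 in Huh7, 123 in Huh1, 152 in HepG2, 256 in SK-HEP1 and 496 in HLE. In siSFPQ cells without TGF-beta it was at 34.5 FPKM in Hep3b, 35.5 in Huh7, 51.1 in Huh1, 96.4 in HepG2, 62.9 in SK-HEP1 and 157 in HLE. Every line was lower after knockdown, and HLE and SK-HEP1, which had the most CCND1, lost the most, so that the level of SK-HEP1 dropped below that of HepG2.

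With TGF-beta, CCND1 in siCTL cells was at 75.1 FPKM in Hep3b, 95.4 in Huh7, 157 in Huh1, 163 in HepG2, 347 in SK-HEP1 and 511 in HLE. In siSFPQ cells with TGF-beta it was at 36.8 FPKM in Hep3b, 43.8 in Huh7, 71.7 in Huh1, 73.3 in HepG2, 73.2 in SK-HEP1 and 164 in HLE. Across the lines the groups overlapped, but within a line both siSFPQ libraries lay below both siCTL libraries in 6 of 6 lines.

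CCND1 fell by 1.22 on the log2(FPKM + 1) scale after knockdown without TGF-beta (SE 0.17, limma adjusted p = 0.00378), lower in 6 of 6 lines. It fell by 1.37 with TGF-beta (SE 0.15, limma adjusted p = 0.0024), again in 6 of 6 lines. The level left after knockdown ran from 24.6% of siCTL in SK-HEP1 to 63.6% in HepG2 without TGF-beta, and from 21.1% in SK-HEP1 to 49% in Hep3b with it. Leaving out the libraries labelled Hep3b gave changes of -1.32 and -1.45, with limma adjusted p of 0.00764 and 0.00482. The overlapping gene on the opposite strand, listed as ORAOV1, an older symbol of LTO1, changed by 0.03 without TGF-beta and by -0.06 with it, and did not pass the test.

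CCND3, the cyclin D3 gene, differed most between lines among the 7 genes with a level above 0 in every line. Its line means over the 4 groups were 82.3 FPKM in Hep3b, 59.4 in HLE, 54.3 in SK-HEP1, 31.7 in Huh1, 9.27 in HepG2 and 3.75 in Huh7, a 21.95-fold range. Only HLE and SK-HEP1 had overlapping ranges among neighbours in that order. In siCTL cells CCND3 was at 72.1 FPKM in Hep3b, 60.7 in HLE, 50.4 in SK-HEP1, 34.2 in Huh1, 9.95 in HepG2 and 4.69 in Huh7, and in siSFPQ cells at 84.8, 55.8, 56.4, 28.3, 6.9 and 2.88 FPKM in the same lines. The change after knockdown was not uniform: the lines labelled Hep3b and SK-HEP1 were higher and the other 4 lower.

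CCND3 did not pass the test after knockdown without TGF-beta (log2 change -0.17, 95% confidence interval -0.43 to 0.09, limma adjusted p = 0.32) or with it (-0.18, interval -0.47 to 0.11, limma adjusted p = 0.313). CCND1 and CCND3 thus had separate intervals in both comparisons, although the difference between the genes was not tested.

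CCND2, the cyclin D2 gene, was near the floor of the table outside 1 line. HepG2 had 1.49 FPKM in siCTL cells, 2.17 with TGF-beta, 0.754 in siSFPQ cells and 1.96 in siSFPQ cells with TGF-beta. The highest value in any other library was 0.161 FPKM, in HLE, and Hep3b was listed at 0 in all 4 libraries. CCND2 therefore missed the filter of at least 1 FPKM in 6 libraries and was outside the limma fits. For CCND2, exact sign flips of the 6 line changes (two-sided) gave p = 0.25 for knockdown without TGF-beta, where 5 lines had a change other than 0 and the smallest p possible is 0.0625. With TGF-beta only 3 lines had such a change, so no p under 0.25 was possible and neither comparison could pass.

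The summed D-type cyclin level was 232 ± 176 FPKM in siCTL cells (SD, n = 6) and 112 ± 57.8 in siSFPQ cells (SD, n = 6). CCND1 made up 80.5% ± 18.4 of that sum in siCTL cells (SD, n = 6) and 67.5% ± 24.5 in siSFPQ cells (SD, n = 6), with the balance almost all CCND3. In the libraries labelled Hep3b the CCND1 share was 44.9% in siCTL cells and 28.9% in siSFPQ cells, the lowest of the 6 lines in each group.

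**Figure D1:**
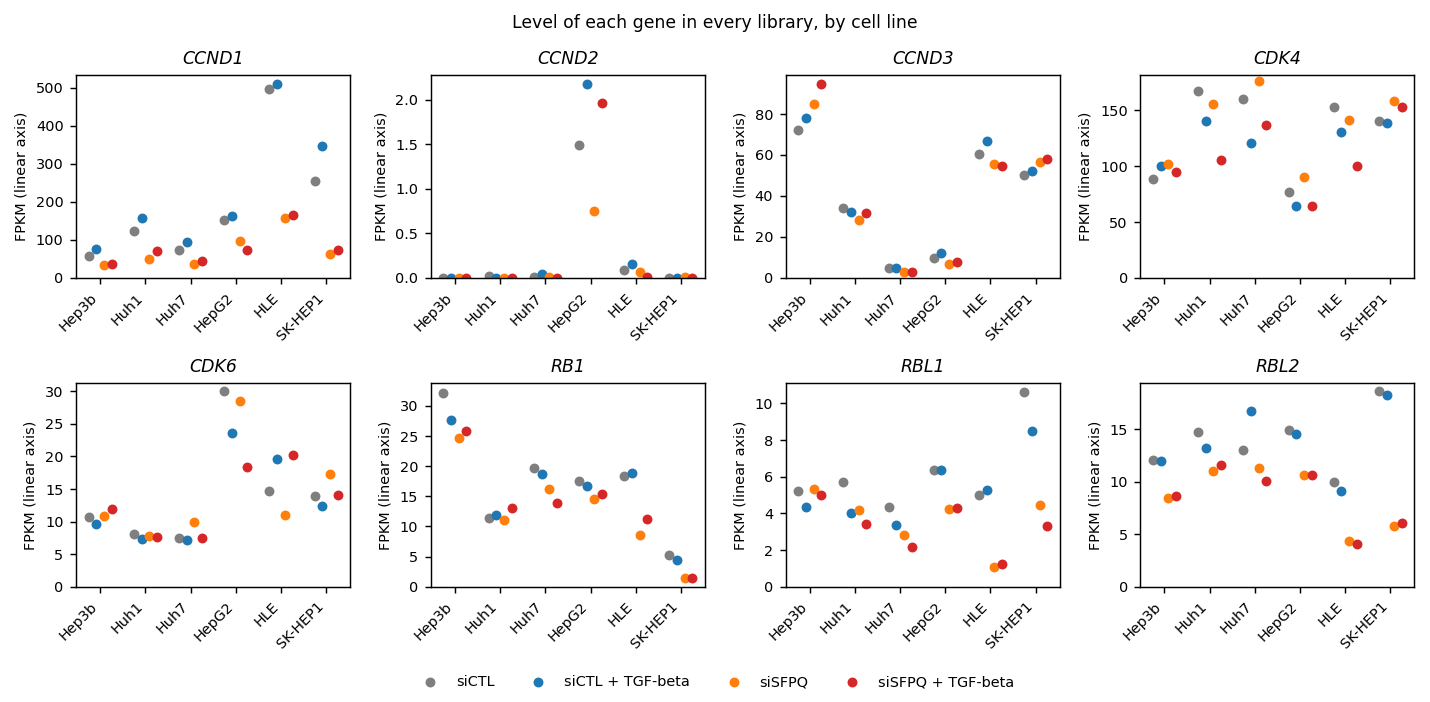
FPKM (vertical, linear axes from 0) of each gene in all 24 libraries, by cell line (horizontal) and group (colour). CCND1 is lower in both siSFPQ groups of every line, CCND2 is above 0.161 FPKM only in HepG2, and CCND3 and RB1 differ mainly between lines.

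CDK4, the more abundant of the kinase transcripts, held a narrow range. Its line means were 148 FPKM in Huh7, 147 in SK-HEP1, 142 in Huh1, 131 in HLE, 96.1 in Hep3b and 74 in HepG2, and every pair of neighbours in that order had overlapping ranges. In siCTL cells CDK4 was at 88.5 FPKM in Hep3b, 167 in Huh1, 160 in Huh7, 77 in HepG2, 153 in HLE and 140 in SK-HEP1, and in siSFPQ cells at 102, 156, 176, 90.2, 141 and 158 FPKM. Higher and lower lines were mixed, with 4 higher and 2 lower after knockdown.

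CDK4 did not pass the test for knockdown without TGF-beta (log2 change 0.09, 95% confidence interval -0.10 to 0.27, limma adjusted p = 0.473) or with it (-0.09, interval -0.30 to 0.12, limma adjusted p = 0.495). TSPAN31, which overlaps CDK4 on the opposite strand, fell by 0.36 without TGF-beta (SE 0.11, limma adjusted p = 0.041). Whether the reads kept strand is not given in the sources used here, so reads in the overlap cannot be told apart.

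CDK6, the second kinase of the pair, was the smaller part of their sum in every library. Its line means were 25.1 FPKM in HepG2, 16.4 in HLE, 14.4 in SK-HEP1, 10.8 in Hep3b, 8.01 in Huh7 and 7.67 in Huh1, so the line lowest in CDK4 was the highest in CDK6. CDK4 made up 89.0% ± 8.77 of the sum of both in siCTL cells (SD, n = 6), and 71.9% in HepG2. Neither knockdown comparison moved CDK6 past the test, with log2 changes of 0.03 (95% confidence interval -0.22 to 0.27) and 0.04 (interval -0.18 to 0.26).

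RB1, which encodes RB, was highest in the libraries labelled Hep3b and lowest in SK-HEP1. In siCTL cells it was at 32.2 FPKM in Hep3b, 19.7 in Huh7, 18.3 in HLE, 17.5 in HepG2, 11.3 in Huh1 and 5.28 in SK-HEP1. In siSFPQ cells it was at 24.7 FPKM in Hep3b, 16.2 in Huh7, 8.5 in HLE, 14.5 in HepG2, 11.01 in Huh1 and 1.48 in SK-HEP1. All 6 lines were lower, by little in Huh1 and by most in SK-HEP1 and HLE. With TGF-beta, RB1 went from 4.38 to 1.39 FPKM in SK-HEP1 and from 18.9 to 11.2 in HLE, while Huh1 was higher, from 11.8 to 13.1.

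RB1 fell by 0.55 after knockdown without TGF-beta (SE 0.17, limma adjusted p = 0.0424), and with TGF-beta its change of -0.40 did not pass (SE 0.16, limma adjusted p = 0.09004). The call was fragile: it was lost under 13 of 15 alternatives, at limma adjusted p of 0.0539 with each library's GC trend removed and 0.0653 without the libraries labelled Hep3b. Leaving out any 1 line but Huh1 lost it (limma adjusted p = 0.053 to 0.113). LPAR6, which overlaps RB1 on the opposite strand, missed the filter in both knockdown comparisons. In siCTL and siSFPQ cells it was at 11.8 and 7.63 FPKM in Huh7 and at 7.13 and 5.03 in HepG2. The other lines reached at most 1.52 FPKM. How far reads of LPAR6 were counted for RB1 was not tested. Hep3B is also known for lacking functional RB protein, which an RNA level does not measure.

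RBL1, the p107 gene and itself an E2F target, was the scarcest pocket protein transcript in every line but SK-HEP1. In siCTL cells it was at 10.6 FPKM in SK-HEP1, 6.36 in HepG2, 5.73 in Huh1, 5.22 in Hep3b, 5.01 in HLE and 4.35 in Huh7. In siSFPQ cells it was at 4.48 FPKM in SK-HEP1, 4.22 in HepG2, 4.19 in Huh1, 5.35 in Hep3b, 1.09 in HLE and 2.83 in Huh7. The line labelled Hep3b was level or higher while the other 5 lines were lower.

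RBL1 fell by 0.66 after knockdown without TGF-beta (SE 0.18, limma adjusted p = 0.0319) and by 0.60 with it (SE 0.20, limma adjusted p = 0.04997), lower in 5 of 6 lines each time. Without the libraries labelled Hep3b the changes were -0.79 and -0.75, at limma adjusted p of 0.0225 and 0.0262. The call with TGF-beta sat at the threshold and held in 2 of 15 alternatives, and the one without TGF-beta held in 7. The latter was lost without Huh7, HepG2, HLE or SK-HEP1 (limma adjusted p = 0.0526 to 0.0916), and the former without any 1 line but the one labelled Hep3b (0.0552 to 0.136).

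RBL2, the p130 gene, whose product is the pocket protein of resting cells, fell in every line. In siCTL cells it was at 18.6 FPKM in SK-HEP1, 14.9 in HepG2, 14.7 in Huh1, 12.98 in Huh7, 12.1 in Hep3b and 9.99 in HLE. In siSFPQ cells it was at 5.76 FPKM in SK-HEP1, 10.6 in HepG2, 11.04 in Huh1, 11.3 in Huh7, 8.45 in Hep3b and 4.39 in HLE. Both siSFPQ libraries lay below both siCTL libraries in 6 of 6 lines, as they did in 5 of 6 for RB1 and 4 of 6 for RBL1.

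RBL2 fell by 0.68 after knockdown without TGF-beta (SE 0.17, limma adjusted p = 0.0213) and by 0.69 with it (SE 0.16, limma adjusted p = 0.0137), in 6 of 6 lines each. Leaving out the libraries labelled Hep3b gave changes of -0.72 and -0.74 (limma adjusted p = 0.0343 and 0.0212). Without HLE the change without TGF-beta was -0.61 and missed the test (limma adjusted p = 0.059). AKTIP, which overlaps RBL2 on the opposite strand, fell by 0.93 (SE 0.23, limma adjusted p = 0.0221) and by 1.00 (SE 0.20, limma adjusted p = 0.00926) in the same comparisons. How far reads of one gene were counted for the other was not tested. The RB family sum was 37.5 ± 6.4 FPKM in siCTL cells (SD, n = 6) and 25.0 ± 10.3 in siSFPQ cells (SD, n = 6). After knockdown it was lowest in SK-HEP1 and HLE, whereas in siCTL cells Huh1 was lowest, at 31.8 FPKM.

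**Figure D2:**
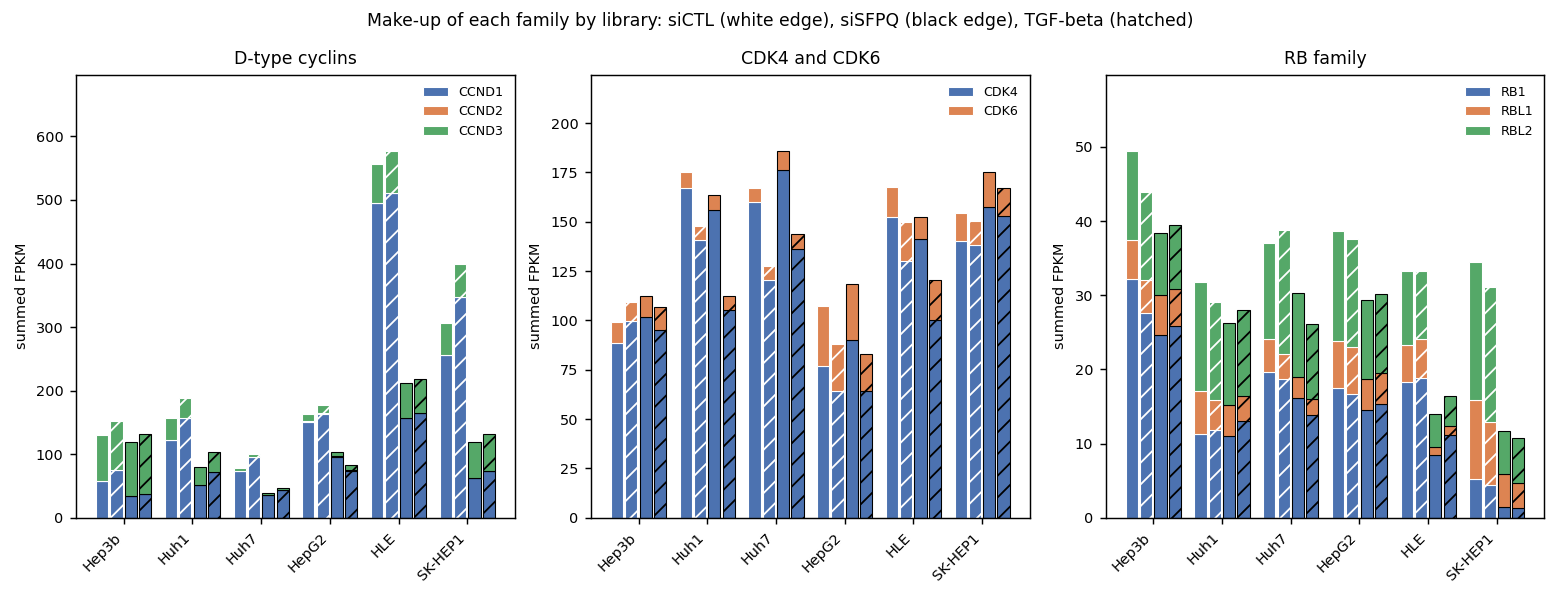
Summed FPKM of the D-type cyclins, of CDK4 and CDK6 and of the RB family (vertical) in each library, stacked by gene, with siCTL bars edged white, siSFPQ bars edged black and TGF-beta bars hatched. The cyclin sum of HLE drops from 557 to 212 FPKM after knockdown, the kinase sums stay between 82.8 and 186 FPKM, and the RB family sum of SK-HEP1 drops to 11.7 FPKM.

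Counted together, 4 of the 7 members tested fell after knockdown without TGF-beta (CCND1, RB1, RBL1 and RBL2) and none rose, where 21.7% of the 12013 genes tested were called and 15.0% were called lower. With TGF-beta, 3 of 7 fell (CCND1, RBL1 and RBL2) and none rose, where 30.3% of 12023 genes were called and 21.8% were called lower. The median change of the 7 members was -0.55 and -0.40, beside -0.07 and -0.09 over all genes tested. The balance of higher and lower calls among all genes depended on the processing. Without TGF-beta they numbered 804 and 1804, 1171 and 1370 with median ratio scaling, and 1361 and 1316 with the GC trend removed. With TGF-beta the same 3 counts were 1018 and 2621, 1579 and 1714, and 1708 and 1658. The GC correction moved the median change of all genes from -0.09 to 0.01 with TGF-beta. Under it the changes of CCND1 and RBL2 kept their direction and their call. RBL1 kept its call without TGF-beta but lost it with TGF-beta, and the RB1 call was lost.

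**Figure D3:**
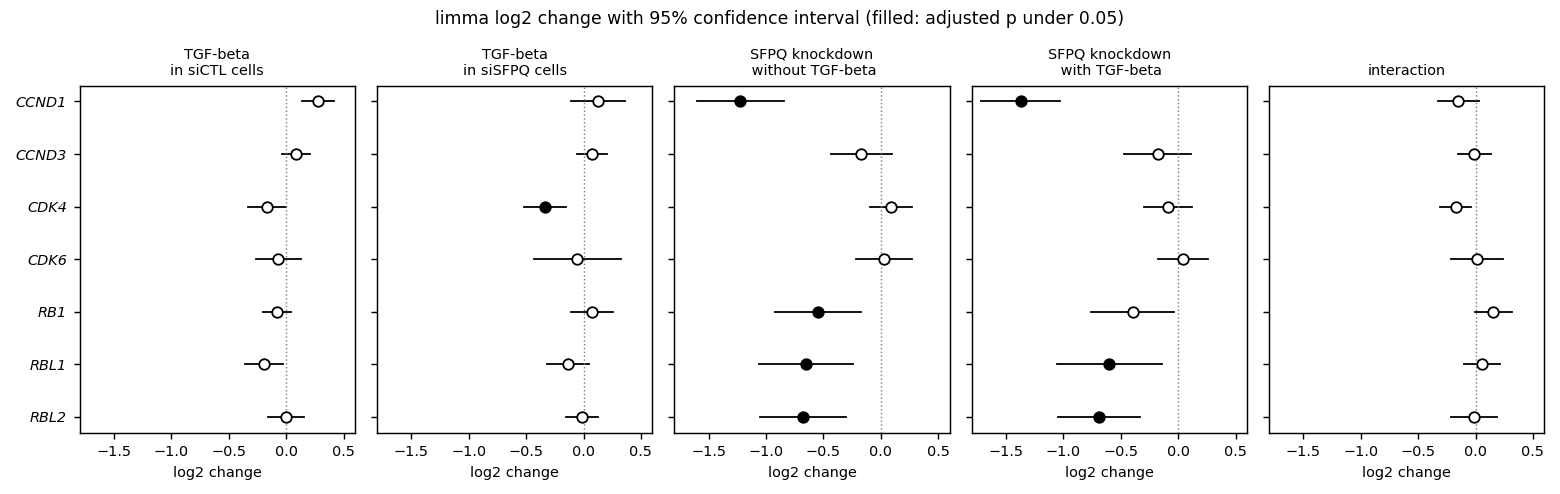
limma log2 change of FPKM + 1 (horizontal) with its 95% confidence interval for the 7 genes tested, in each of 5 comparisons, with filled points for adjusted p under 0.05. Filled points are CDK4 for TGF-beta in siSFPQ cells, CCND1, RB1, RBL1 and RBL2 for knockdown without TGF-beta, and CCND1, RBL1 and RBL2 with it.

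The lines that kept the least SFPQ also kept the least of these 4 transcripts. HLE and SK-HEP1 kept 31.6% and 24.6% of CCND1, 46.4% and 28.1% of RB1, 21.8% and 42.2% of RBL1, and 43.9% and 30.9% of RBL2 after knockdown without TGF-beta. The other 4 lines kept 41.5% to 63.6% of CCND1, 76.6% to 97.2% of RB1, 65% to 102% of RBL1 and 70% to 86.8% of RBL2. Both lines also had few hepatocyte transcripts, as did the line labelled Hep3b, so knockdown depth and line identity cannot be told apart. Without HLE and SK-HEP1, CCND1 still fell by 0.92 and 1.09 (limma adjusted p = 0.00866 and 0.000622), RBL2 fell by 0.42 with TGF-beta (limma adjusted p = 0.0297), and the other calls were lost: RB1 at -0.23, RBL1 at -0.33 and -0.24, and RBL2 at -0.37 without TGF-beta. This alternative was chosen after seeing the data.

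**Figure D4:**
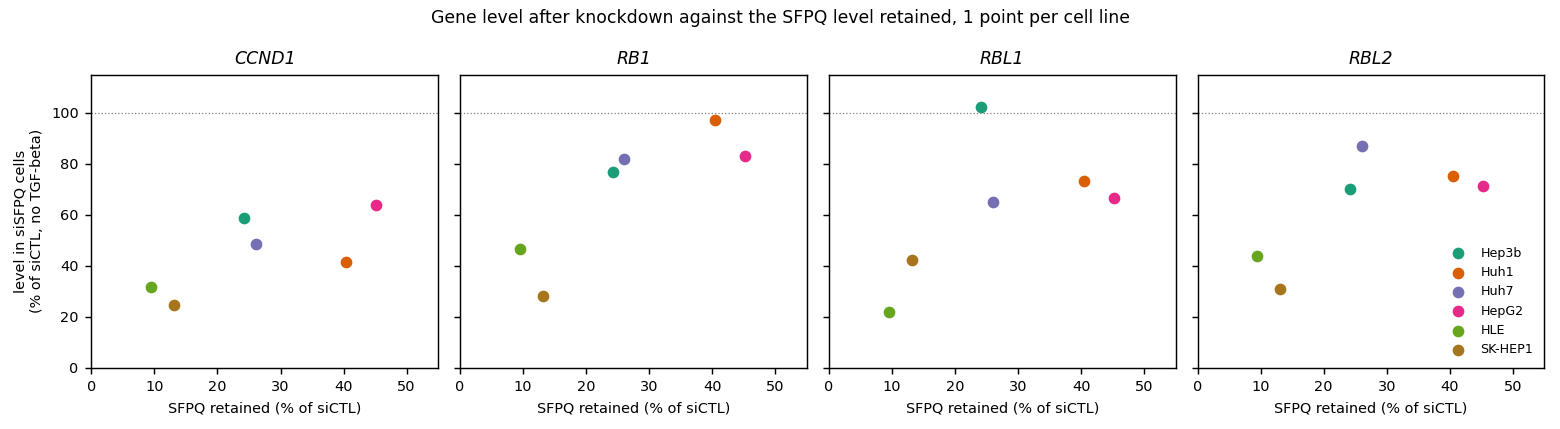
Level in siSFPQ cells as a percent of siCTL (vertical, no TGF-beta) against the SFPQ level retained (horizontal, percent of siCTL), 1 point per line. HLE and SK-HEP1, at 9.49% and 13.1% of SFPQ, lie lowest in each of the 4 panels, and RBL1 in the line labelled Hep3b lies at 102%.

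TGF-beta in siCTL cells moved none of the 7 members past the test (0 calls by limma, 3 at an unadjusted p under 0.05), where 0.0986% of 12166 genes were called and 1910 had an unadjusted p under 0.05. CCND1 was the nearest, higher in 6 of 6 lines by 0.28 (SE 0.06, limma adjusted p = 0.105), with levels from 103% of untreated in HLE to 136% in SK-HEP1. RBL1 was lower in 5 of 6 lines (-0.19, limma adjusted p = 0.267), as was CDK4 (-0.16, limma adjusted p = 0.315). The other 4 genes tested had changes between -0.08 and 0.08.

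In siSFPQ cells TGF-beta moved 1 of the 7 members, where 5.13% of 11886 genes were called, 2.88% lower and 2.25% higher. CDK4 went from 102 to 94.9 FPKM in Hep3b, 156 to 105 in Huh1, 176 to 136 in Huh7, 90.2 to 64.5 in HepG2, 141 to 100.5 in HLE and 158 to 153 in SK-HEP1. All 6 lines were lower, with little change in Hep3b and SK-HEP1. CDK4 fell by 0.34 (SE 0.08, limma adjusted p = 0.0499), a call that held under 1 of 15 alternatives and was lost without any 1 line (limma adjusted p = 0.0519 to 0.126), at -0.39 and 0.0519 without the libraries labelled Hep3b. Over all genes, higher and lower calls numbered 268 and 342 there, and 294 and 101 with median ratio scaling.

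CCND1 gave a smaller mean change with TGF-beta in siSFPQ cells than in siCTL cells (0.13, SE 0.10, limma adjusted p = 0.436), with HepG2 lower and 5 lines higher, and the difference between them did not pass (-0.15, limma adjusted p = 0.47). The difference in TGF-beta change between siSFPQ and siCTL cells, the interaction, was called for 0 of 7 members by limma (1 at an unadjusted p under 0.05), where 0.252% of 13496 genes were called and 1688 had an unadjusted p under 0.05. It was largest in CDK4 (-0.17, SE 0.06, limma adjusted p = 0.313) and RB1 (0.15, SE 0.07, limma adjusted p = 0.418). These comparisons share libraries with those of the knockdown, so their values are not independent. CDK6 in HLE was at 14.7 FPKM without and 19.7 with TGF-beta in siCTL cells, the only line higher there, and at 11.04 and 20.2 in siSFPQ cells, where the line labelled Hep3b was also higher.

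**Figure D5:**
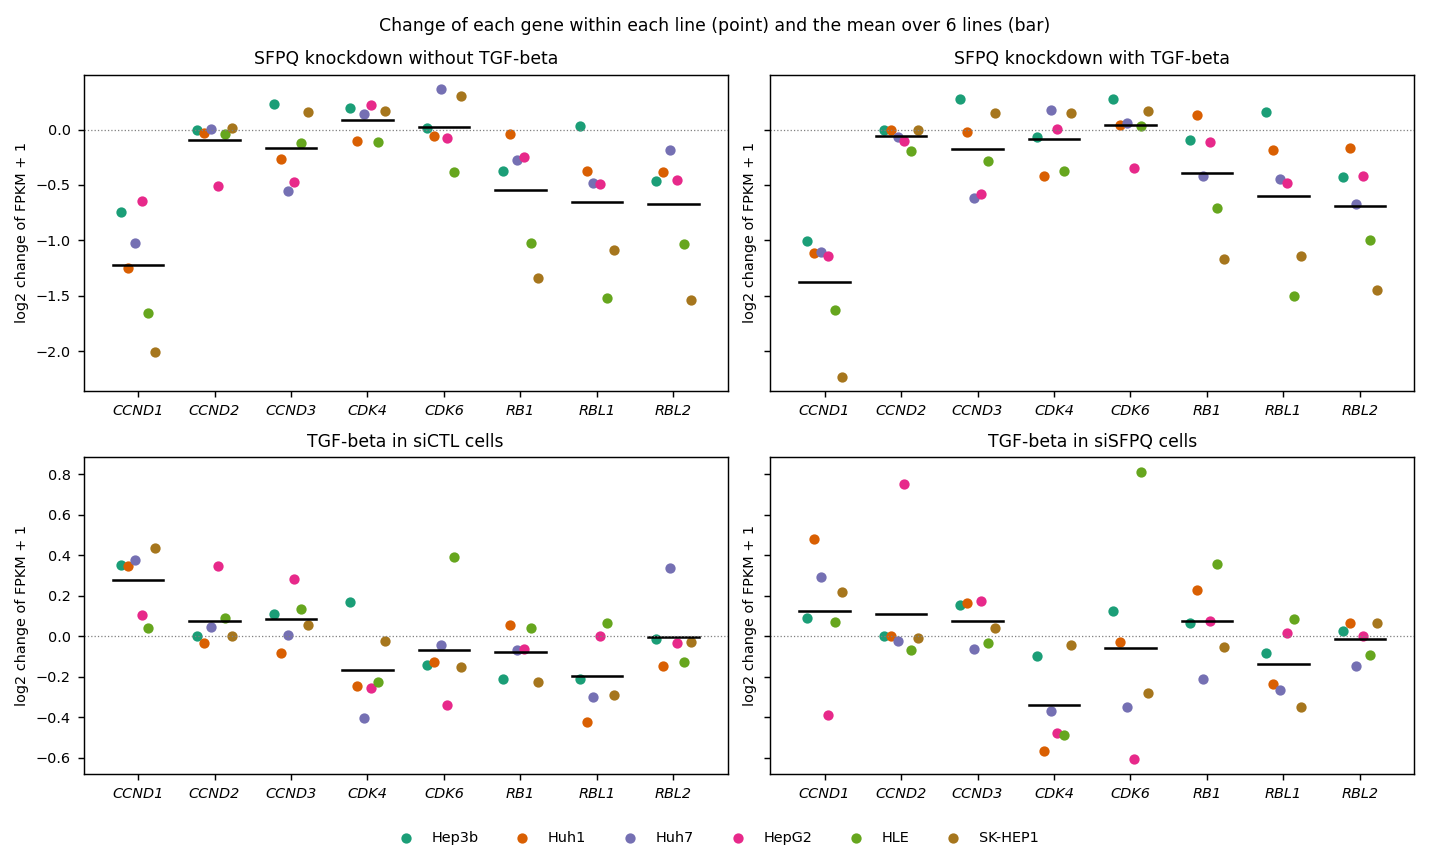
Change of log2(FPKM + 1) within each line (points, coloured by line) and the mean over 6 lines (bars), with the knockdown comparisons above and the TGF-beta comparisons below on a narrower axis. CCND1 and RBL2 lie below 0 in 6 of 6 lines in both knockdown panels, and CDK4 lies below 0 in 6 of 6 lines for TGF-beta in siSFPQ cells.

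Of the 7 CDK inhibitor genes, 2 fell after knockdown without TGF-beta and 1 with it, and none rose, where 15.0% and 21.8% of all genes tested were called lower. With TGF-beta the share of the list was below that of all genes. CDKN2C, which encodes the CDK4/6 inhibitor p18, fell by 1.12 and 1.06 (limma adjusted p = 0.0119 and 0.00952). CDKN2D, encoding p19, fell by 0.43 without TGF-beta (limma adjusted p = 0.0299), a call lost under 9 of 15 alternatives. It changed by -0.35 with TGF-beta (limma adjusted p = 0.13). CDKN2B, encoding p15 and a known TGF-beta target, had changes of 0.73 and 0.78 with TGF-beta in siCTL and siSFPQ cells and did not pass (limma adjusted p = 0.15 and 0.0577). CDKN1A, encoding p21, changed by 0.24 and 0.12 after knockdown and by 0.19 and 0.07 with TGF-beta, none past the test. CDKN2A, whose INK4A product blocks CDK4/6, ran from 0.108 to 194 FPKM between lines in siCTL cells and passed no test. CDKN1B, encoding p27, and CDKN1C, encoding p57, passed no test either, with knockdown changes of -0.07 and 0.15 without TGF-beta and -0.12 and 0.35 with it.

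Of 20 E2F target genes of the G1/S step, 12 fell after knockdown without TGF-beta and 10 with it, and none rose, where 15.0% and 21.8% of all genes tested were called lower. Their median changes were -0.66 and -0.60, beside -0.07 and -0.09 over all genes. PCNA, the sliding clamp of DNA polymerase, fell by 0.66 and 0.74, TK1, a thymidine kinase, by 0.99 and 1.05, POLA1, a DNA polymerase subunit, by 1.08 and 0.94, and MCM6, of the replicative helicase, by 0.66 and 0.76. TYMS, thymidylate synthase, fell by 0.76 without TGF-beta and changed by -0.45 with it, which did not pass (limma adjusted p = 0.0099 and 0.09005). Like RBL1, shown above, 10 of the 16 listed genes that have a RefSeq window held an E2F match in at least 1 window. The 3.31% given above is per window, and no share per gene over all genes was taken. The list was chosen as E2F targets, so a high share was likely beforehand. Without HLE and SK-HEP1, 5 and 7 of the 20 fell, and without Huh7 and HepG2, 3 and 1. With no filter on low values 4 and 5 fell. Leaving out 1 line, 6 to 13 fell without TGF-beta, with 6 when Huh7 was left out, and 5 to 11 with it, with 6 without Huh7 or HepG2 and 5 without SK-HEP1. TGF-beta in siSFPQ cells lowered 1 of the 20, MCM6 (-0.31, limma adjusted p = 0.0376), where 2.88% of all genes were called lower, and that call was lost under 12 of 15 alternatives.

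Of 10 E2F and DP factor genes, 3 fell in each knockdown comparison and none rose, where 15.0% and 21.8% of all genes were called lower. E2F2, an activator, fell by 0.88 in both (limma adjusted p = 0.0107 and 0.00957), and E2F8, a repressor, by 0.90 and 0.94. The third was E2F7, a repressor, without TGF-beta (-0.54) and E2F6 with it (-0.24, lost under 12 of 15 alternatives). E2F4, the usual partner of p107 and p130, passed neither test, and E2F5 fell by 0.52 with TGF-beta in siSFPQ cells (limma adjusted p = 0.034, lost under 9 of 15). Of 6 genes of the MuvB core, which forms the DREAM complex with p107 or p130, and of its partners, only LIN52 fell, by 0.86 and 1.05.

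Among 10 other interphase cyclin and kinase genes, 3 fell without TGF-beta and 2 with it, and none rose. Over all genes, 15.0% and 21.8% were called lower, so with TGF-beta the list's share lay just under that of all genes. CCNA2, the S-phase cyclin A2, fell by 0.88 and 0.90, and MNAT1, of the CDK-activating kinase, by 0.93 and 1.08. CCNE2, a cyclin E, fell by 0.69 without TGF-beta, a call lost under 13 of 15 alternatives. CCNE2 is also on the list of E2F target genes, so its call was counted in both lists. The MNAT1 call without TGF-beta was lost under 11 of 15. CDK2 passed neither test.

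Of 12 genes for cyclin D turnover and folding, 2 fell without TGF-beta, a share near the 15.0% of all genes called lower. With TGF-beta 5 fell and 2 rose, where 21.8% of all genes were called lower and 8.47% higher. FBXO4 and FBXO31, F-box proteins that direct cyclin D1 to degradation, fell by 0.48 and 0.32 without TGF-beta and by 0.67 and 0.39 with it. Without TGF-beta their calls were lost under 9 and 11 of 15 alternatives. With TGF-beta, SKP2, an F-box protein that directs p27 to degradation, fell by 0.74, and HSP90AB1, an HSP90 chaperone, by 0.25. HSP90AB1 has near-identical processed copies in the genome, so its value is uncertain. The other calls with TGF-beta were CDC37 (-0.27), CRYAB (1.04) and CUL4A (0.26), lost under 9, 7 and 7 of 15 alternatives. Of the 13 inputs to cyclin D transcription tested, 2 rose and none fell in each knockdown comparison, where 6.69% and 8.47% of all genes were called higher and 21.7% and 30.3% were called in either direction. MYC rose by 0.63 and 0.49 (limma adjusted p = 0.0147 and 0.045), and CTNNB1, the beta-catenin gene, by 0.26 and 0.37. MYC with TGF-beta and CTNNB1 without it were lost under 10 and 11 of 15 alternatives. ETS2 rose by 0.49 with TGF-beta in siSFPQ cells, a call lost under 10 of 15. No gene of these 7 pathway lists passed the interaction test (0 calls by limma).

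Few markers of other cell types passed the filter of at least 1 FPKM in 6 libraries of a comparison of 2 groups. Some that missed it were high in some lines: COL1A2 reached 124 FPKM in SK-HEP1 and LUM 77.1 in Huh1. Of the 5 stellate and fibroblast markers, 2 were tested in those comparisons, and all 5 in the interaction, where none was called. COL1A1 and PDGFRB both rose with TGF-beta in siSFPQ cells (by 2.61 and 1.25, lost under 9 and 7 of 15 alternatives). They also rose with knockdown in the presence of TGF-beta (by 0.98 and 1.05). COL1A1 is itself a known TGF-beta target. Of 5 immune markers, CD68 rose by 0.36 after knockdown without TGF-beta, a call lost under 10 of 15 alternatives. PTPRC and CD3E reached at most 0.0727 FPKM in any library. LYZ, in contrast, reached 743 FPKM in HepG2 and 588 in Huh7, and CD14 reached 9.77 in HLE. No hepatocyte marker was called in any comparison (0 of 8). Their part in the results was not tested.

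Gene structure varied among the members, and the 3 RB family genes had the lowest GC of the 8. GC is given as the mean over the GENCODE transcripts of a gene. The principal transcripts of RB1, RBL1 and RBL2 spanned 178, 99.7 and 57.2 kb, and these genes had 42.3%, 43.5% and 41.0% GC. CCND1, which also fell, spanned 13.4 kb by its principal transcript and had 61.9% GC. CDK6 had the longest span, 229 kb, at 52.1% GC, and passed no test.

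Across the 24 libraries RBL1 and RBL2 varied together (Pearson r = 0.72 of log2 levels), as did CCND2 and CDK6 (r = 0.67). CDK4 ran against CCND2 (r = -0.75) and against CDK6 (r = -0.54), and the pairs with CCND1 lay between -0.15 and 0.37. These are descriptions over 24 libraries that share 6 lines, with no test. CCND2 was above 0.161 FPKM only in HepG2, so its correlations mainly set HepG2 against the other lines. Among 13496 genes, those most like each member were CLTC for CCND1 (r = 0.90), SRCRB4D for CCND2 (0.97), IQSEC2 for CCND3 (0.97), PRTFDC1 for CDK4 (0.90), USP34 for CDK6 (0.89), LRRFIP1 for RB1 (0.93), KIAA1731 for RBL1 (0.92) and ZNF766 for RBL2 (0.93). The next 2 for CCND1 were ENDOD1 and PPARD, and for RBL1 they were BUD13 and RBBP8.

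Spread between lines exceeded spread within lines for 6 of the 8 genes. On the log2 scale the SD between line means was 1.65 for CCND3 against a pooled SD of 0.22 within lines, and 0.98 against 0.39 for RB1. For RBL1 (0.37 and 0.49) and RBL2 (0.34 and 0.47) the spread within lines, which holds the treatments, was the larger.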

How the data were processed

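Polyadenylated RNA of 24 libraries was analysed. The submitters' processing notes list Cufflinks 2.2.1, TopHat2 2.1.1 and the hg19 build. The annotation and strand setting were not given in the sources used here. This deposited table of the authors is named raw counts, but its values are fractional and were taken as FPKM, the unit Cufflinks writes. Values scaled with length: in 816 low genes with 1 GENCODE transcript, the lowest value above 0 fell with transcript length (log-log slope -0.919, Spearman's rho -0.81, across genes). Depth in reads is unknown.

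Estimates under 1e-06 were set to 0, 1603 short RNA rows were left out and 21681 kept. limma 3.58.1 in R 4.3.3 was fitted to log2(FPKM + 1) with the cell line as a block, a mean-variance trend and robust shrinkage, in genes with at least 1 FPKM in 6 of the libraries compared. P-values were adjusted by Benjamini-Hochberg over all genes tested, and a call is an adjusted p under 0.05. Each comparison of 2 groups used 12 libraries and the interaction 24, with 5 residual degrees of freedom. A fold change on this scale understates that of low genes. CCND2 was tested by exact sign flips of the 6 lines (64 flips). The fit was tested on simulated data.

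Lines pair the libraries by label: deviations from group means correlated at 0.874 to 0.978 within a line (36 pairs) and at -0.514 to 0.41 otherwise (180 pairs). No 2 libraries held identical values (0 pairs), and 2 columns of the table were not used. The members and gene lists were chosen with earlier results of these data known. Named genes were SFPQ, the members, every CDK inhibitor, up to 4 called genes with the smallest p of each list and comparison, overlapping genes and the genes most alike by correlation. AKTIP, ORAOV1, HNF4A, ALB, CDC37, CRYAB, CUL4A, E2F4, CDK2, PTPRC, CD3E, LYZ, CD14, COL1A2 and LUM were added after values were seen. Spans and GC came from GENCODE 29 on another build, with no coordinates used. A result on 1 further gene is not reported here.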

Additional observations from a re-analysis of the deposited data

Results flagged for a closer look

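The 8 genes gave 72 sets of 6 lines, their levels in each group and their changes in each comparison. In 11 sets 1 line lay far from the others by Dixon's criterion for 6 values (0.625), which chance meets in about 1 of 20 sets.

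HepG2 stood above the other lines in CCND2 in all 4 groups, at 1.49 FPKM in siCTL cells, 2.17 with TGF-beta, 0.754 in siSFPQ cells and 1.96 in siSFPQ cells with TGF-beta. Its CCND2 changes were flagged too: 0.35 with TGF-beta in siCTL cells, 0.75 in siSFPQ cells, -0.51 after knockdown without TGF-beta, and 0.41 for the interaction. The other lines had at most 0.161 FPKM, so their changes on the log2(FPKM + 1) scale could hardly leave 0. These flags therefore cannot show a response particular to HepG2. The HepG2 siSFPQ library was also among the shallowest, at 0.407 times the median depth, and its part in these values was not tested.

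SK-HEP1 had the lowest RB1 in siSFPQ cells with TGF-beta, at 1.39 FPKM. Huh7 was apart in RBL2, with a change of 0.34 for TGF-beta in siCTL cells and of -0.485 for the interaction. Both changes include its siCTL library with TGF-beta, at 16.7 FPKM beside 12.98 in siCTL cells without it. The Huh7 siSFPQ library with TGF-beta, which enters only the interaction, was the shallowest of all, at 0.352 times the median depth. The part of depth was not tested.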

How the results depend on the processing

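Depth in reads is unknown, which limits what low values, such as CCND2 outside HepG2, can show. Of 525 comparisons of a member's change with an alternative, 431 kept direction and call, 56 lost the call and 38 changed sign. CCND1 kept its call after knockdown under 14 of 15 alternatives, with and without TGF-beta, at limma adjusted p of 1.73e-05 to 0.0232, and lost it only without the replicate block. Without that block, which pairs the libraries by line, no gene was called in any comparison (0 members and 0 genes by limma, where unadjusted p under 0.05 was reached by 11, 47, 633, 734 and 6 genes).

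Members called were 1 for TGF-beta in siSFPQ cells and 0 under all settings but the additive fit. After knockdown without TGF-beta the 4 members called became 1 with no filter on low values, 2 without Huh7 and HepG2, 1 without HLE and SK-HEP1, and 1 to 4 leaving out 1 line. With TGF-beta the 3 became 1 without Huh7 and HepG2 and 2 to 3 leaving out 1 line.

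All genes called for TGF-beta in siCTL cells, 12, became 0 with no filter, 5 with the GC trend removed, 1 with short RNA rows kept, 4 in 1 additive fit, 4 without Huh7 and HepG2, 0 without HLE and SK-HEP1 and 0 to 17 leaving out 1 line. For TGF-beta in siSFPQ cells 610 became 15 with no filter, 395 with median ratio scaling, 341 with short RNA rows, 67 without Huh7 and HepG2, 1 without HLE and SK-HEP1 and 34 to 418 leaving out 1 line. For knockdown 2608 without TGF-beta became 1152, 986, 869 and 1382 to 2205, and 3639 with it became 2410, 1657, 2095 and 2379 to 2989, with no filter, without Huh7 and HepG2, without HLE and SK-HEP1 and leaving out 1 line. The interaction's 34 became 13 with a pseudocount of 0.1, 4 with no filter, 18 with short RNA rows, 0 in 1 additive fit, 7 without HLE and SK-HEP1 and 8 to 28 leaving out 1 line. The causes were not tested.

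Signs changed only in changes that passed no test. RBL2 with TGF-beta in siCTL cells became 0.0275 with median ratio scaling, 0.0299 with the GC trend removed, 0.0375 without HLE and SK-HEP1, and -0.0689 to 0.0284 leaving out 1 line. In siSFPQ cells it became 0.0393, 0.0528 and, without Huh7 and HepG2, 0.0156, and -0.0293 to 0.013 leaving out 1 line. Its interaction became 0.0117 with median ratio scaling, 0.0229 with the GC trend removed, 0.0938 without Huh7 and HepG2 and -0.0577 to 0.0820 leaving out 1 line. CDK6 with TGF-beta in siSFPQ cells became 6.26e-05 with median ratio scaling, 0.157 without Huh7 and HepG2 and -0.229 to 0.0555 leaving out 1 line. Its knockdown change without TGF-beta became -0.032 without Huh7 and HepG2 and -0.0406 to 0.11 leaving out 1 line, and with TGF-beta -0.00714 to 0.1175. Its interaction became -0.05295 without HLE and SK-HEP1 and -0.0681 to 0.0773 leaving out 1 line. CCND3 after knockdown became 0.0017 without and 0.0307 with TGF-beta, each without Huh7 and HepG2. Its interaction became 0.018 with median ratio scaling, 0.029 without Huh7 and HepG2, 0.0291 without HLE and SK-HEP1 and -0.0616 to 0.0209 leaving out 1 line. CDK4 after knockdown with TGF-beta became 0.0249 with median ratio scaling.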
